A study of Sus scrofa with 4 samples.

Results

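The iron and 2-oxoglutarate dependent oxygenases other than TET were examined in porcine 4-cell embryos treated with the TET inhibitor Bobcat339. The set consists of 46 listed genes: the JmjC histone lysine demethylases, the remaining JmjC hydroxylases, the ALKBH enzymes with FTO, the EGLN prolyl hydroxylases, the collagen prolyl and lysyl hydroxylases and a few metabolic and ribosome-associated members. Rows were taken where the name column of the expression table held a listed symbol, which gave 45 of the 35248 rows. The row of KDM4A has no name in the table and was found only by its Ensembl identifier, so its values are given but it is not counted among the 45. The table's own functional annotation attaches a dioxygenase term to 29 of the 45, against 0.295% of the 20010 annotated rows, and a histone demethylase term to 18.

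Embryos were parthenogenetic, developed from electrically activated oocytes held in cytochalasin B and then cultured in PZM-3 with albumin for 48 h, so they carry no paternal genome. The Bobcat339 group (2 libraries) received 50 µM of the compound, and the control group (2 libraries) received the solvent DMSO, for which the labels state a dose in the unit of the inhibitor. How many embryos went into a library is not stated in the labels. Replicates are not said to come from separate cultures, so p-values reflect the spread among these libraries alone, and that spread may be technical. The study's title asks how TET inhibition alters embryonic gene expression.

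Enzymes of this class bind an iron atom in their active site and use oxygen and 2-oxoglutarate to hydroxylate a substrate. When the hydroxylated carbon sits on a methylated nitrogen the methyl group leaves as formaldehyde, which is how JmjC enzymes demethylate histone lysines and how several ALKBH enzymes repair or edit methylated bases. Ascorbate supports many of them, and succinate or 2-hydroxyglutarate compete with the cosubstrate. The TET enzymes share this chemistry with the genes described here. RNA libraries measure transcripts and not enzyme activity, and in bulk samples fewer cells of a kind and less RNA per cell cannot be told apart.

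Library totals lay between 13568525 and 14681221 counts, and 3 counts, the level that a count of 0 allows, equal 0.204 to 0.221 CPM (counts scaled to a common library size, here scaled by the TMM method when a gene is compared between libraries), a floor that covers counting error only. Across genes the Pearson correlation of log2 CPM was 0.959 between the controls, the lowest of all pairs, and 0.976 between the Bobcat339 libraries. Of the oocyte and embryo markers BMP15 (3289 FPKM), WEE2 (2062), KLF17 (604), GDF9 (210) and ZP3 (18.9) were all present, and NLRP5 was not matched. Among 11 cumulus and granulosa markers found, summed levels ran from 67.9 to 96.4 CPM per library, most of it VCAN. TNFAIP6, a gene of the expanding cumulus, was below 2 CPM (4 to 24 counts) in every library. Its log2 difference between the groups was −2.07 (edgeR adjusted p = 0.999). The more abundant VCAN (0.085) and COL1A1 (0.57) lay above 0, and of the 6 tested markers of this list 2 were above 0 and 4 below. The part of such cells in any result was not tested. The cumulus genes FSHR, INHBA and FOXL2 stayed under 0.5 CPM in every library and AMH was listed at 0. The 4 blood and immune markers summed to 4.80 to 8.38 CPM.

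Measured per length (FPKM, as deposited), the transcripts of the class spanned from 0.0303 to 51.3 on average over the 4 libraries. Of the 45 members 37 had a mean of at least 1 FPKM, 13 at least 10 and 10 at least 20. The leading 3 were KDM5A, a demethylase of methylated histone H3 lysine 4 (51.3 ± 4.10 FPKM, SD over the 4 libraries), HIF1AN, the asparaginyl hydroxylase of HIF (49.7 ± 6.98), and JMJD6, a lysyl hydroxylase of splicing proteins (43.4 ± 7.13). The ranges of these 3 overlapped, so their order is not resolved by the spread between libraries. RIOX1 (28.6), OGFOD1 (28.1), EGLN2 (27.0) and ALKBH1 (26.3) came next, then KDM3A (20.7), KDM5B (20.4) and PLOD2 (20.2). At the other end P3H2 had 0 counts in 2 libraries and 5 and 2 in the others, and KDM3B had 3 to 10 counts per library. Together with ALKBH6 (1 to 6 counts) and P4HA3 (8 to 18 counts) these 4 did not pass the filter on low counts and were not tested in the main comparison.

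**Figure D1:**
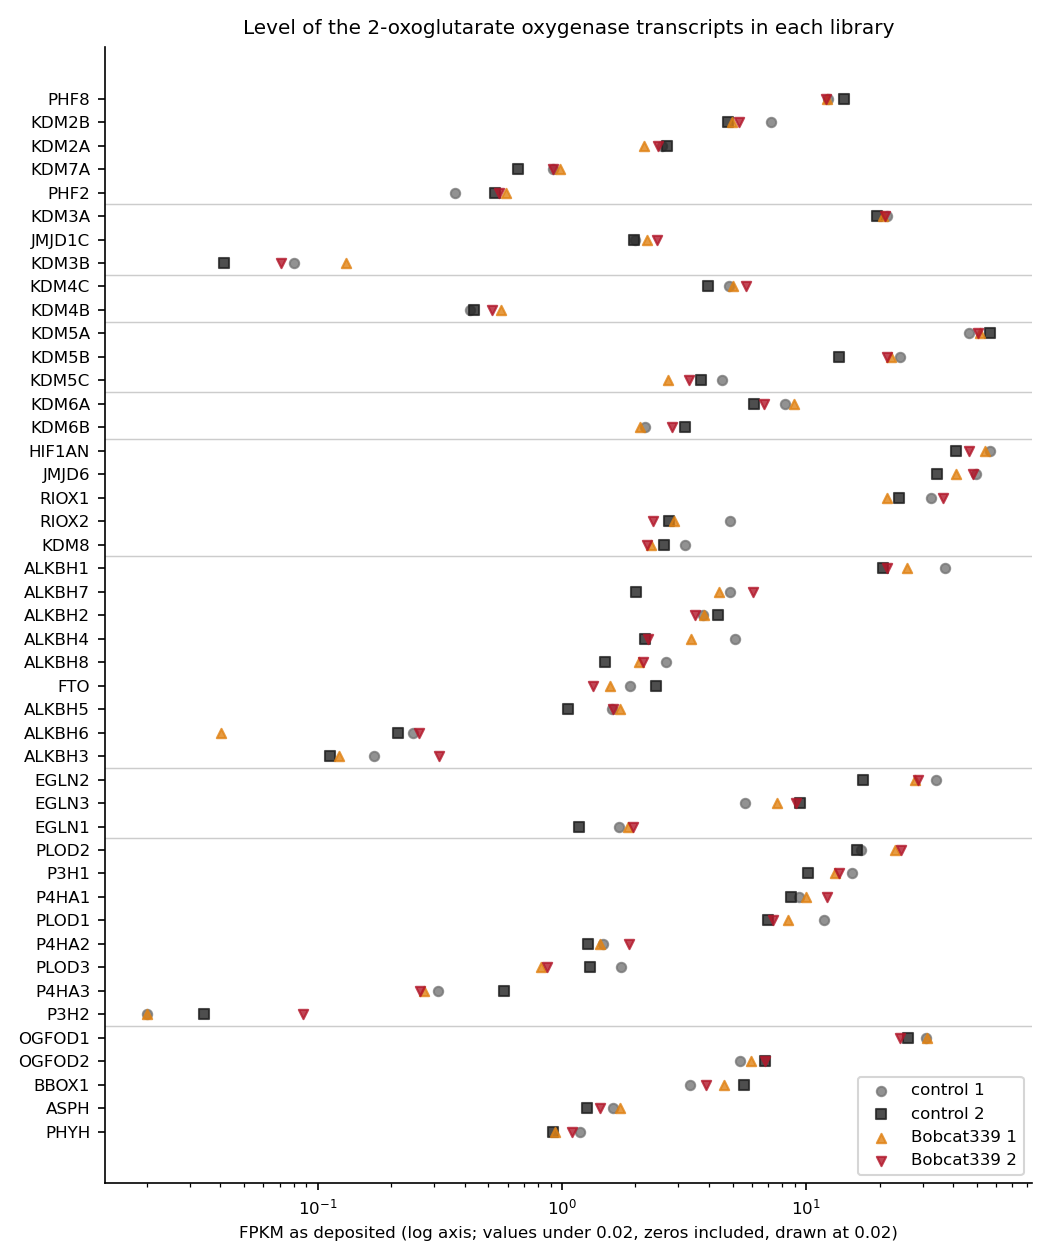
Deposited FPKM (horizontal axis, logarithmic) of the 45 members in each of the 4 libraries, grouped by enzyme family and ordered by mean level within a family. KDM5A, HIF1AN and JMJD6 lie furthest right, and KDM3B, ALKBH6, ALKBH3, P4HA3 and P3H2 are among those below 1 FPKM in every library. Values under 0.02 are drawn at that level.

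The main comparison asked which transcripts differed between Bobcat339 and control embryos. None of the 41 tested members passed edgeR's quasi-likelihood test at a Benjamini-Hochberg adjusted p of 0.05 over all 18481 tested rows, of which 0.0% passed. The smallest adjusted p of a member was 0.999 with edgeR. No member had an unadjusted p under 0.05 (4.0% of all rows did). DESeq2 called 0 of 45 members and limma-voom 0 of 41. DESeq2 called 0.0167% of its 30007 rows and had PLOD2 alone among members at an unadjusted p under 0.05. Log2 fold changes of members ranged from −0.88 (PLOD3) to 0.57 (ALKBH3), with 22 above 0 and 19 below and a median of 0.01, against −0.02 over all tested rows. The standard error was 0.34 at the median member and 0.24 to 0.75 over members. For 26 of the 41 the 95% interval excluded log2 differences of 1 in either direction, and every interval included 0. For the other members the intervals reached a log2 difference of 1. Over all tested rows 1018 had a log2 fold change of at least 1 in size and 0 of them passed.

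In 7 members both Bobcat339 libraries lay above both controls, which happened at 13.3% of all tested rows, and in 7 both lay below, against 16.0% of all rows. The 7 higher were PHF2, JMJD1C, KDM4B, KDM4C, EGLN1, P4HA1 and PLOD2. The 7 lower were KDM2A, PHF8, KDM5C, KDM8, ALKBH2, FTO and PLOD3. These 34.1% of members stand near the 29.3% of all rows whose groups did not overlap.

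**Figure D2:**
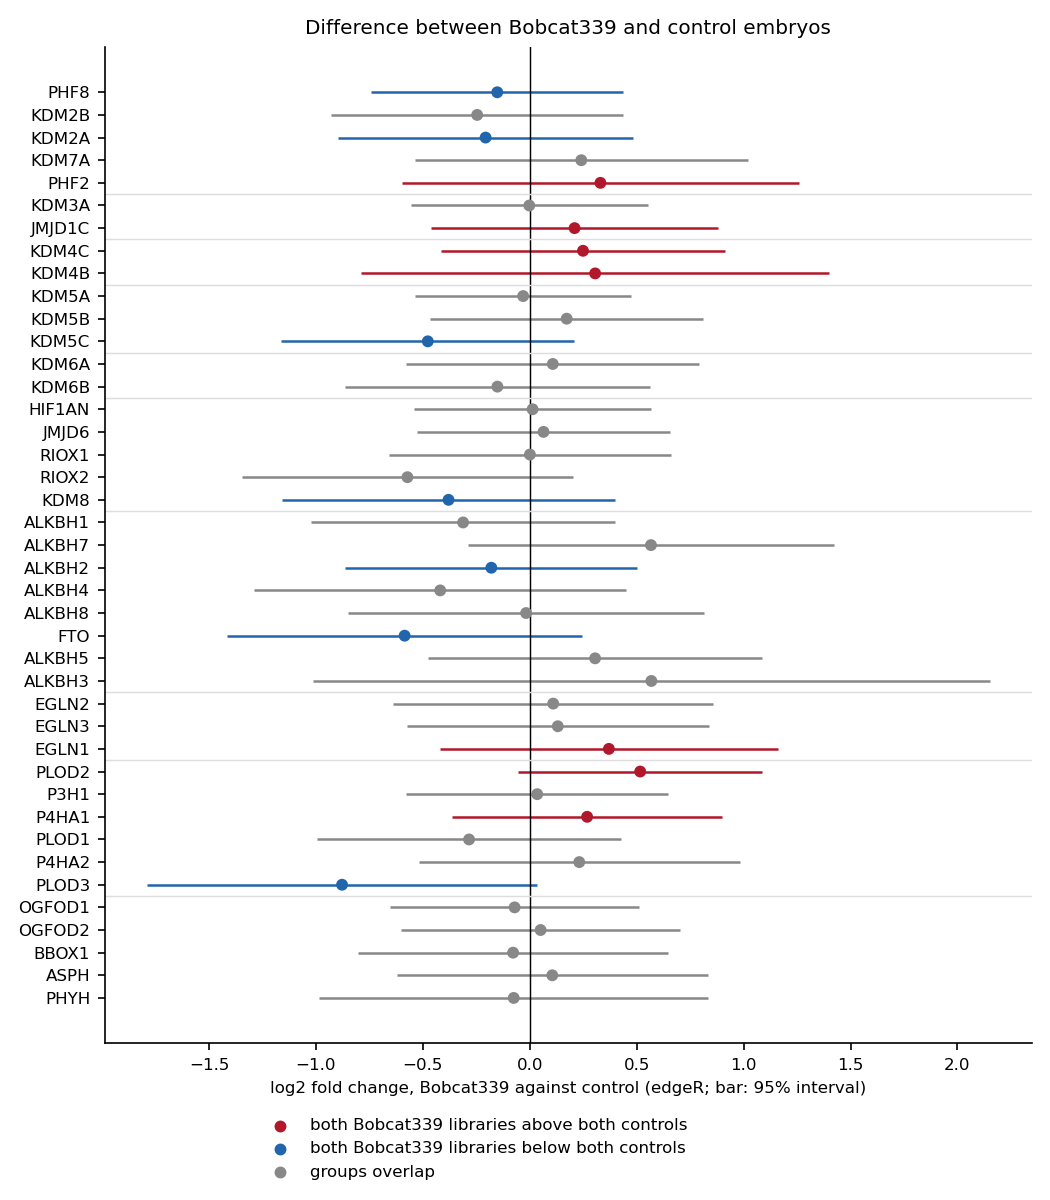
Log2 fold change of Bobcat339 against control (horizontal axis) for the 41 tested members, with 95% intervals from edgeR; colour marks whether the 2 groups of 2 libraries overlap. All 41 intervals include 0, and those of PLOD2 and PLOD3 come closest to leaving it out.

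Histone lysine demethylases of the JmjC type were present in all 5 subfamilies, and none of the 14 tested members passed. Of these 7 were above 0 and 7 below, with a median log2 fold change of 0.05. The KDM5 enzymes, which remove methyl groups from histone H3 lysine 4, included the most abundant member. KDM5A had 481 and 465 CPM after Bobcat339 and 446 and 521 CPM in controls 1 and 2. Both treated libraries therefore lay inside the range of the controls, and the log2 fold change was −0.03 (SE 0.24; 95% interval −0.54 to 0.48). KDM5B had 161 and 154 CPM after Bobcat339 and 181 and 98.2 CPM in controls 1 and 2. Its log2 fold change was 0.17 (SE 0.30), and the treated libraries were again between the controls. The X-linked KDM5C was lower in both Bobcat339 libraries (17.2 and 20.8 CPM) than in the controls (29.6 and 23.2 CPM), with a log2 fold change of −0.48 (95% interval −1.16 to 0.21; edgeR adjusted p = 0.999). KDM5D, the Y-linked copy in mammals, was listed at 0 in all 4 libraries, a value fixed in advance in embryos without a paternal genome. JMJD8, P4HTM and PHYHD1 of the same enzyme class and ELOB of the HIF list were also listed at 0 in all 4, and the cause was not tested.

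The KDM3 enzymes, which act on methylated histone H3 lysine 9, differed greatly in level. KDM3A had 153 and 155 CPM after Bobcat339 and 165 and 144 CPM in the controls, and its log2 fold change was 0.00 (95% interval −0.56 to 0.55). That is among the tightest of the intervals, and the treated pair lay within the controls. JMJD1C, a relative of KDM3A, had 21.4 and 23.2 CPM in Bobcat339 embryos against 19.8 and 18.8 CPM in the controls, a log2 fold change of 0.21 (SE 0.32). Per length KDM3A was at 20.7 FPKM, JMJD1C at 2.17 and KDM3B at 0.0807. The KDM3B row covers 71.0 kb and shares 33966 bases with REEP2 on the same strand, so its level is uncertain.

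Among the KDM4 enzymes, which demethylate histone H3 lysines 9 and 36, KDM4B and KDM4C had the treated libraries above the controls without passing. That order was found at 13.3% of all tested rows. KDM4C had 31.1 and 34.8 CPM in Bobcat339 embryos against 31.0 and 24.5 CPM in controls 1 and 2, so the nearest libraries were almost equal, and a log2 fold change of 0.25 (SE 0.31). KDM4B was scarce, at 2.32 and 2.11 CPM against 1.79 in each control, with a log2 fold change of 0.31 (SE 0.52). KDM4A, matched by its identifier and not counted in the family medians, was the most abundant of the 3 at 9.19 FPKM. It stood at 54.2 and 63.7 CPM in Bobcat339 embryos against 69.7 and 51.0 CPM in the controls (log2 fold change −0.03, SE 0.30). Its groups overlapped.

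The KDM6 enzymes remove methyl groups from histone H3 lysine 27, the mark laid by Polycomb. KDM6A, on the X chromosome, had 38.9 and 28.9 CPM after Bobcat339 and 36.6 and 26.4 CPM in the controls, so library 1 exceeded library 2 in both groups, and the log2 fold change was 0.11 (SE 0.32). KDM6B had 15.9 and 21.3 CPM against 17.2 and 24.1 CPM, with library 2 the higher in both groups and a log2 fold change of −0.15 (SE 0.34). The deposited row of KDM6B covers 312 kb of chromosome 12 (52796952 to 53108916) and overlaps 21 other rows, among them POLR2A, EIF4A1 and CHD3. Reads of those genes and of KDM6B may therefore not be cleanly separated, and its value is uncertain.

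The KDM2 and KDM7 group contains enzymes with a zinc finger or PHD finger beside the JmjC domain. KDM2A and KDM2B bind unmethylated CpG islands and KDM2B recruits a variant Polycomb complex there. PHF8, the most abundant of the group (12.7 FPKM) and X-linked, had 79.6 and 78.5 CPM in Bobcat339 embryos against 82.9 and 92.8 CPM in the controls. The treated libraries were lower, by a log2 fold change of −0.15 (SE 0.28) that did not pass. KDM2B had 31.0 and 32.8 CPM against 46.1 and 29.6 CPM in controls 1 and 2, so control 1 alone stood high (log2 fold change −0.25, SE 0.32). The log2 fold changes of the remaining 3 were −0.21 for KDM2A, 0.24 for KDM7A and 0.33 for PHF2.

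Of 21 listed partners of these demethylases (Polycomb, SIN3, COMPASS and LSD complexes) that were tested, 0 passed, 8 had log2 fold changes above 0 and the median was −0.04. The most abundant by FPKM were SKP1 (0.09), a subunit of F-box complexes including that of KDM2B, and SIN3A (0.11), a corepressor scaffold.

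The remaining JmjC proteins are hydroxylases of proteins rather than established histone demethylases. HIF1AN had 357 and 304 CPM in Bobcat339 embryos and 385 and 270.0 CPM in controls 1 and 2, a log2 fold change of 0.01 (95% interval −0.54 to 0.57). JMJD6 had 163 and 190 CPM against 203 and 135 CPM, a log2 fold change of 0.06 (SE 0.28). In both genes the 2 controls formed the highest and the lowest of the 4 libraries. RIOX1, a histidyl hydroxylase of ribosomal protein uL2, split the Bobcat339 pair instead, with 75.0 and 125 CPM against 117 and 83.3 CPM in the controls and a log2 fold change of 0.00 (SE 0.31). RIOX2, which hydroxylates ribosomal protein uL15, differed by −0.57 (log2, SE 0.37), a value that was −0.06 without control 1, the highest library at 22.2 CPM. KDM8 had −0.38 (SE 0.37).

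Several ALKBH enzymes and FTO act on alkylated or methylated nucleic acids, ALKBH2 and ALKBH3 in repair, ALKBH1 and ALKBH8 on tRNA, and ALKBH5 and FTO as erasers of methyladenosine in RNA. None of 8 tested members passed. Of these 3 were above 0 and 5 below, with a median log2 fold change of −0.10. ALKBH1, the most abundant at 26.3 FPKM, had 48.4 and 39.6 CPM in Bobcat339 embryos and 71.0 and 38.2 CPM in controls 1 and 2. Its log2 fold change was −0.31 (SE 0.34), and control 1 was the only library far from the rest. ALKBH7, a mitochondrial member, had 15.0 and 20.5 CPM in Bobcat339 embryos against 17.1 and 6.80 CPM in controls 1 and 2. The low library was control 2, the groups overlapped and the log2 fold change was 0.57 (95% interval −0.29 to 1.42; edgeR adjusted p = 0.999).

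FTO (chromosome 6: 31174569 to 31564906) had 4.84 and 4.08 CPM after Bobcat339 and 6.02 and 7.37 CPM in the controls. The treated libraries were below both controls. The log2 fold change was −0.59 (SE 0.39; 95% interval −1.41 to 0.24; edgeR adjusted p = 0.999), and it lay between −0.72 and −0.40 with any library left out. FTO was covered by only 56 to 103 counts per library. ALKBH5, the other eraser, pointed the other way at 0.31 (SE 0.37), with 10.3 and 9.54 CPM against 9.82 and 6.23 CPM and overlapping groups. The difference between the 2 erasers was not tested. Among 14 tested writers and readers of RNA methylation 0 passed and 5 were above 0 (median −0.04). The most abundant were CBLL1 (0.11), a writer subunit, and YTHDF2 (−0.07), a reader that speeds decay. ALKBH3 had 7 to 19 counts per library and the widest interval of the class (−1.01 to 2.15), and its span overlaps ACCSL, which had at least 26416 counts per library. ALKBH2 had −0.18, ALKBH4 −0.42 and ALKBH8 −0.02.

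EGLN enzymes hydroxylate prolines of HIF alpha subunits and so mark them for VHL-dependent degradation when oxygen is present. None of the 3 passed, and all 3 log2 fold changes lay above 0. EGLN2, the leading form per length at 27.0 FPKM, had 31.9 and 32.4 CPM in Bobcat339 embryos and 40.2 and 19.4 CPM in controls 1 and 2. The treated pair was thus tight and lay between widely separated controls (log2 fold change 0.11, SE 0.35). The FPKM of EGLN2 rests on a length of 1140 bases, against 3283 for EGLN3, and its row lies within the span of RAB4B, so its lead is uncertain. EGLN3 had 24.9 and 29.6 CPM against 19.1 and 30.6 CPM, with the controls in the opposite order (log2 fold change 0.13, SE 0.33). EGLN1, the main regulator of HIF in most cells, was here the scarcest at 1.68 FPKM, with 8.86 and 9.11 CPM against 8.38 and 5.51 CPM and a log2 fold change of 0.37 (SE 0.37), both treated libraries above both controls. The direction of EGLN2 turned to −0.29 without control 2, and that of EGLN3 to −0.17 without control 1.

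Of the HIF system and its known targets 22 of 29 listed genes were tested, and 0 passed. Log2 fold changes were above 0 in 18 of the 22 (81.8%, against 47.1% of all tested rows), with a median of 0.21. Both treated libraries lay above both controls in 6 of the 22, against 13.3% of all tested rows, and below both in 0, against 16.0%. The most abundant were the hexokinase HK2 (0.20) and the carbonic anhydrase CA9 (−0.06). In 2 genes, named after their values were seen, the unadjusted edgeR p was under 0.05. They were ADM, the vasodilator adrenomedullin (0.99), and PFKFB3, a glycolytic regulator (1.12), each with an edgeR adjusted p of 0.999. PFKFB3 had 3.75 and 9.18 CPM in Bobcat339 embryos against 3.44 and 2.51 CPM in the controls, so library 2 carried most of the difference. The log2 fold changes of HIF1A (0.02) and EPAS1 (0.05), the HIF subunits themselves and also named after their values were seen, were near 0. With a library left out, the number above 0 lay between 14 and 16 of 22, and the median between 0.06 without control 1 and 0.43 without Bobcat339 1. Without Bobcat339 2 the median was 0.10. Bobcat339 1 stood above Bobcat339 2 in only 5 of the 22 (22.7%, against 49.5% of all tested rows). The list was chosen with earlier results of these data known, and no test was made of this pattern.

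Collagen hydroxylases work in the endoplasmic reticulum, where P4HA and P3H enzymes hydroxylate prolines and PLOD enzymes hydroxylate lysines of procollagen. Of 6 tested members 0 passed, 4 were above 0 and 2 below. The 2 members with the smallest unadjusted p of the whole class were the lysyl hydroxylases PLOD2 and PLOD3, with opposite signs. PLOD2 (ENSSSCG00000011689, chromosome 13: 86401762 to 86513631, minus strand, in the coordinates of the deposited table, which match Sscrofa11.1 gene positions) makes the telopeptide hydroxylysines that stabilise crosslinks. It had 1919 and 1877 counts in the Bobcat339 libraries and 1354 and 1257 in the controls, or 131 and 137 CPM against 97.0 and 90.0 CPM. Both pairs were tight, with means of 134 ± 4.25 and 93.5 ± 4.97 CPM (SD, n = 2 each). The treated libraries lay above both controls, as at 13.3% of all tested rows, and the gene was singled out by its small p. The log2 fold change was 0.52, or 1.43-fold (SE 0.27; 95% interval −0.06 to 1.09; edgeR adjusted p = 0.999), and it lay between 0.49 and 0.57 with any library left out. With groups apart the sign holds almost by construction when a library is left out, here and for PLOD3 and FTO.

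PLOD3 (ENSSSCG00000028879, chromosome 3: 8911789 to 8919516, minus strand), which also carries glycosyltransferase activity, had 40 and 39 counts in the Bobcat339 libraries and 83 and 60 in the controls. In CPM these were 2.73 and 2.84 against 5.95 and 4.30, with both treated libraries below both controls. The log2 fold change was −0.88 (SE 0.43; 95% interval −1.79 to 0.03; edgeR adjusted p = 0.999), between −1.06 and −0.63 with any library left out. The third family member, PLOD1, had 34.7 and 29.8 CPM against 50.2 and 28.4 CPM, a log2 fold change of −0.28 (SE 0.34) that turned to 0.19 without control 1. Per length, PLOD2 was the leading lysyl hydroxylase (20.2 FPKM) over PLOD1 (8.66) and PLOD3 (1.19).

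Among prolyl hydroxylases P3H1 led with 13.1 FPKM and stood at 117 and 120 CPM in Bobcat339 embryos and 141 and 89.9 CPM in controls 1 and 2 (log2 fold change 0.03, SE 0.29). Its row spans 154 kb and overlaps 6 other rows. P4HA1, the main catalytic subunit of collagen prolyl 4-hydroxylase, had 51.2 and 61.4 CPM against 49.4 and 44.1 CPM, with the treated libraries above the controls and a log2 fold change of 0.27 (SE 0.30). P4HA2 had 0.23 (SE 0.36). In the list of collagens and their maturation 16 of 30 genes were tested, 0 passed and 6 were above 0 (median −0.10). Collagen chains themselves were low, and the highest, COL11A1, named after its value was seen, had 2.32 FPKM. The most abundant of the list were P4HB (0.44), the beta subunit shared by the P4HA enzymes, and the galactosyltransferase COLGALT2 (0.53).

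Of the remaining members OGFOD1, a prolyl hydroxylase of the small ribosomal subunit, had 160 and 123 CPM in Bobcat339 embryos and 163 and 133 CPM in the controls (log2 fold change −0.07, SE 0.28). OGFOD2 had 34.5 and 39.1 CPM against 32.0 and 39.1 CPM (0.05, SE 0.31). BBOX1, the last enzyme of carnitine synthesis, had −0.08, PHYH, the peroxisomal phytanoyl-CoA hydroxylase, −0.08, and ASPH, a hydroxylase of EGF-like domains, 0.11. Outside the 46, 9 genes listed as relatives of the class, JARID2 among them, were tested, with 0 passing. Their median was −0.19, and 1 was above 0 (ASPHD2, 0.32), against 47.1% of all tested rows. The TET genes, the targets of the inhibitor, were among them at −0.35 (TET1), −0.19 (TET2) and −0.10 (TET3). The count above 0 was 2 to 5 with a library left out. JMJD4, a hydroxylase of the translation release factor, was the most abundant of these at 18.9 FPKM (−0.13), followed by ASPHD2.

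Iron and ascorbate supply was represented by 10 tested genes, of which 0 passed and 3 were above 0 (median −0.08). PCBP1, an iron chaperone (−0.11), and FTL, the ferritin light chain (0.12), were the most abundant. TFRC, the transferrin receptor, had 65.7 and 52.7 CPM in Bobcat339 embryos against 184 and 90.0 CPM in controls 1 and 2, a log2 difference of −1.21 (edgeR adjusted p = 0.789). Both treated libraries lay below both controls, as at 16.0% of all tested rows. The controls themselves were far apart, with control 1 above control 2 by 1.02 on the log2 scale.

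Counts over these lists moved with the libraries used. With a library left out, genes above 0 numbered 4 to 11 for the collagen list, 7 to 14 for the demethylase partners and 4 to 8 for RNA methylation. Without control 1 and without control 2 the median log2 fold change was 0.063 and 0.318 for the HIF list. In the same order it was −0.012 and 0.008 for the collagen list, −0.15 and 0.105 for the partners and 0.16 and −0.2 for RNA methylation. With 1 control left, the spread came from the Bobcat339 libraries alone, so list genes passing in those fits are not named.

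The 2 control libraries stood further apart than the groups did for most members, as for most rows of the table. Control 1 exceeded control 2 in 31 of the 41 tested members (75.6%), against 49.8% of all tested rows and 55.9% of the 8488 tested rows with a name and at least 1 FPKM. The median difference was 0.36 on the log2 scale, against −0.01 over all tested rows. Control 2 was the lowest of the 4 libraries at 25 members (61.0%, against 28.4% of all rows and 33.9% of the named ones). Control 1 was the highest at 17 (41.5%, against 32.7% of all rows and 40.2% of the named ones). In 33 members (80.5%) the controls differed by more than the Bobcat339 libraries did, against 68.1% of all tested rows and 73.8% of the named ones. In 30 (73.2%) they differed by more than the fold change between the groups, against 67.7% and 73.3%. The absolute difference exceeded 0.5 for the control pair in 17 members (41.5%, against 46.1% and 42.5%) and for the Bobcat339 pair in 3 (7.32%, against 22.3% and 12.7%). The width of the control pair was thus near that of the other rows. The members with the widest control pair were ALKBH7 (1.27), ALKBH4 (1.23) and EGLN2 (1.03). These members were counted with the results known, and no test was made of this pattern. Mitochondrial transcripts made up 5.59% (control 1) and 6.36% (control 2) of control counts against 4.94% and 4.02% in the treated libraries, and their part in the pattern was not tested.

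**Figure D3:**
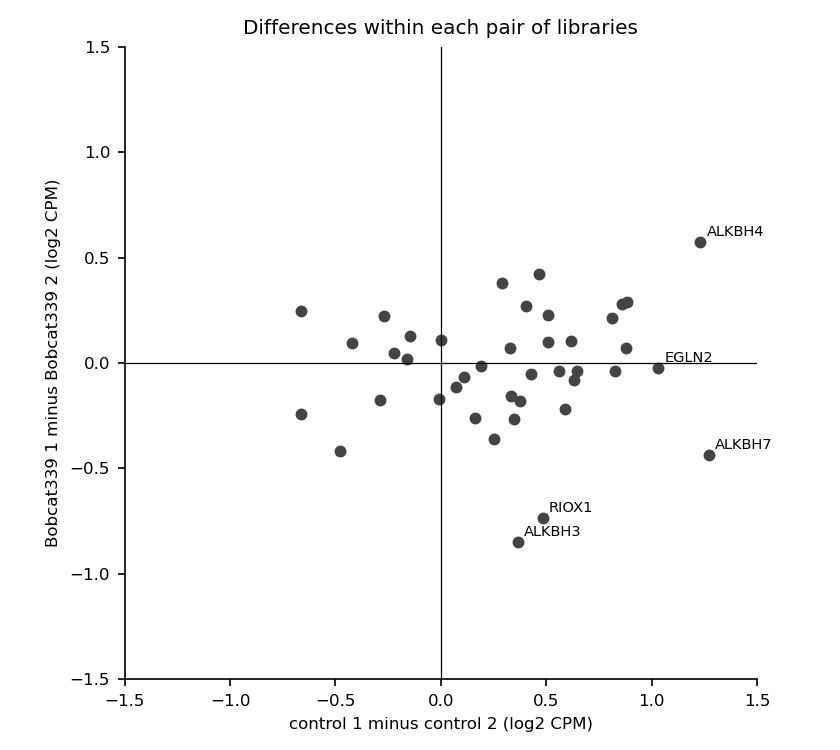
Log2 CPM difference between the 2 control libraries (horizontal axis) and between the 2 Bobcat339 libraries (vertical axis) for each of the 41 tested members (points). Most points lie right of 0 and spread further along the horizontal than along the vertical axis, with ALKBH7, ALKBH4 and EGLN2 beyond 1.

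Many members changed direction with the control that was used. Without control 1 the median log2 fold change of tested members was 0.23 and without control 2 it was −0.07, while the medians over all rows were 0.00 and 0.03. Without control 1, edgeR called 2.92% of all rows and 2 of 42 members, both higher in Bobcat339 embryos. They were ALKBH7 (chromosome 2: 72699569 to 72703864; log2 fold change 1.38, edgeR adjusted p = 0.00512) and KDM5B (chromosome 10: 24739157 to 24831494; 0.68, edgeR adjusted p = 0.0376). Without control 2, edgeR called 2.47% of all rows and 0 of 41 members, and the same genes stood at 0.08 (ALKBH7) and −0.17 (KDM5B). Both fits take their spread from the Bobcat339 libraries, since a single control has none of its own. The sign stayed the same without each library in turn for 19 of the 42 genes tested when KDM4A is included. These 42 genes leave out P4HA3, which is among the 42 members tested without control 1. PLOD2, PLOD3, FTO, KDM5C, KDM2A and P4HA1 were among the 19. In each of these named genes both treated libraries lay on the same side of both controls. Such genes keep their sign almost by construction when a library is left out, so this adds little to the count of groups that did not overlap. The share over all tested rows was not computed.

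**Figure D4:**
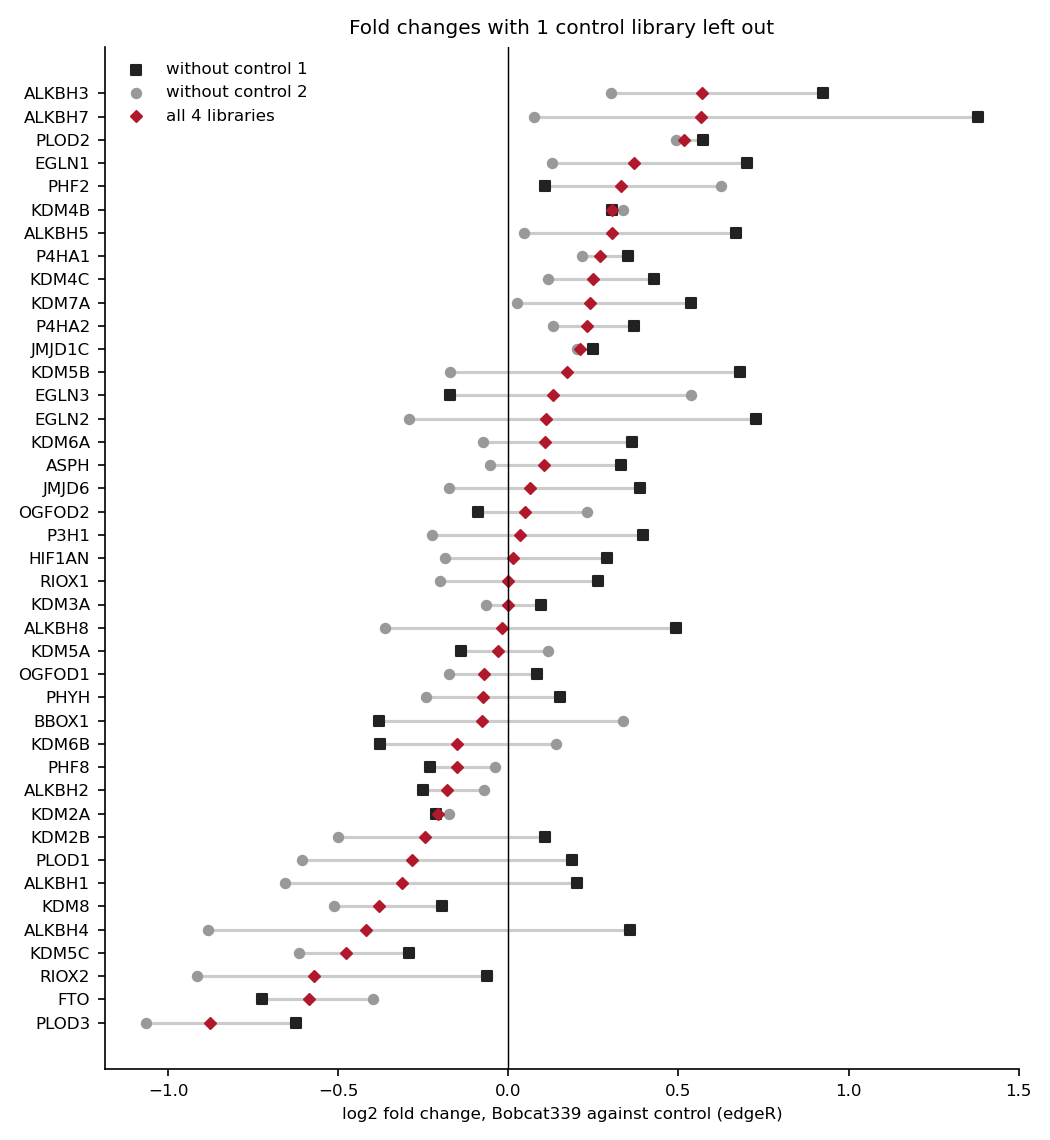
Log2 fold change of Bobcat339 against control (horizontal axis) for the 41 members tested with all libraries, with all 4 (diamonds), without control 1 (squares) and without control 2 (circles). ALKBH7 lies furthest right without control 1, at 1.38, whereas the 3 marks of PLOD2, KDM2A and JMJD1C nearly coincide.

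Rows overlapped another row of the table in 23 of the 45 members. No source used here states whether counting used the strand, so reads from the bases shared with such neighbours may not be told apart. EGLN2 lies within the span of RAB4B over 7153 bases, OGFOD1 shares 342 bases with NUDT21, ALKBH7 shares 1396 bases with the abundant GTF2F1 and 402 with CLPP, and PLOD3 shares 645 bases with ZNHIT1. PLOD2, FTO, KDM5A and HIF1AN have no overlapping row.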

How the data were processed

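Expression was measured by Smart-seq2 RNA sequencing, per the labels' protocols, in 2 Bobcat339 and 2 control libraries of 4-cell embryos. The authors deposited a table of read counts and FPKM per gene. Per the submitters' processing notes the tools were Trimmomatic, HISAT2 2.0.5, HTSeq and DESeq2 1.16.1 with the build Sscrofa10.2, but the coordinates of 13990 of 14155 named rows (98.8%) overlapped the same gene in Sscrofa11.1, so positions are given as deposited. The length behind the deposited FPKM values equalled the length column, within 1%, at 56.3% of 23570 rows.

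Counts were tested by the quasi-likelihood method of edgeR 4.0.16 (R 4.3.3) after TMM scaling, on the 18481 rows that filterByExpr kept at its minimum of 10 counts, with Benjamini-Hochberg adjustment and a threshold of 0.05. The filter removed 16767 rows, and tested rows held 99.7% of the counts. Differences within a pair are log2 CPM with a pseudocount of 0.5. The fit was tested on simulated counts that gave all genes and both groups a common spread. The control pair here was wider than the Bobcat339 pair, so that run does not show how the fit performs on such pairs. DESeq2 1.42.0, limma-voom (limma 3.58.1), other scalings and filters, a replicate block and each library left out were the alternatives. Replicates were not duplicates, with a chi-square per gene of 8.88 for the Bobcat339 pair and 31.7 for the controls.

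The members and lists were chosen with earlier results of these data known. Values in every library are given for members with an unadjusted p under 0.05 or called in any alternative, for the 2 with the highest FPKM of each family, and for those whose groups did not overlap with a log2 fold change of at least 0.5 in size, with some others added. Of each list the 2 most abundant genes and any with an unadjusted p under 0.01 are named. Promoter and protein sequences were not used here.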

Additional observations from a re-analysis of the deposited data

How the results depend on the processing

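Of all rows, 0 passed with edgeR and all libraries (740 at an unadjusted p under 0.05), 5 with DESeq2, 44 with the replicate block, and 0 to 586 with a library left out, the most without control 1 and 494 without control 2. Members passing numbered 0, also with the block, and 0 to 2 with a library left out. The labels tie the replicate numbers to no shared batch and the deviations of same-numbered libraries correlated at 0.159 over 2 pairs, so the numbers were not treated as pairing. A group left with 1 library was assumed to vary like the other group. The median of the KDM6 family (−0.022) was 0.002 with DESeq2, −0.018 with limma-voom and with the block, −0.002 with DESeq2 size factors, 0.002 without scaling, 0.006 without a filter and −0.030 at a minimum of 5 CPM, and that of KDM2 and KDM7 (−0.152) was −0.187 at that minimum. With a library left out, family medians ranged from −0.126 to 0.107 for KDM2 and KDM7, 0.068 to 0.172 for KDM3, 0.227 to 0.367 for KDM4, −0.171 to 0.038 for KDM5, −0.044 to 0.032 for KDM6, −0.294 to 0.263 for the other JmjC proteins, −0.217 to 0.426 for ALKBH and FTO, 0.129 to 0.703 for EGLN, −0.046 to 0.360 for collagen hydroxylases and −0.055 to 0.086 for the remaining members. KDM3A turned to 0.022 with DESeq2, 0.001 with limma-voom, 0.017 with DESeq2 size factors, 0.024 without scaling, 0.027 without a filter and 0.001 with the block. ALKBH8 turned to 0.008, 0.049, 0.002, 0.014, 0.013 and 0.038 in the same order. RIOX1 turned to −0.028 with limma-voom, −0.003 at 5 CPM and −0.025 with the block. Each of these 3 lay within 0.05 of 0, and the cause was not tested. With a library left out the fold changes that changed sign ranged from −0.657 to 0.203 for ALKBH1, −0.190 to 1.086 for ALKBH3, −0.884 to 0.359 for ALKBH4, −0.363 to 0.492 for ALKBH8, −0.055 to 0.330 for ASPH, −0.379 to 0.336 for BBOX1, −0.292 to 0.728 for EGLN2, −0.170 to 0.538 for EGLN3, −0.187 to 0.291 for HIF1AN, −0.173 to 0.388 for JMJD6, −0.501 to 0.109 for KDM2B, −0.065 to 0.097 for KDM3A, −0.213 to 0.207 for KDM4A, −0.139 to 0.116 for KDM5A, −0.171 to 0.681 for KDM5B, −0.129 to 0.365 for KDM6A, −0.376 to 0.139 for KDM6B, −0.280 to 0.155 for OGFOD1, −0.088 to 0.231 for OGFOD2, −0.224 to 0.395 for P3H1, −0.243 to 0.151 for PHYH, −0.605 to 0.186 for PLOD1 and −0.366 to 0.317 for RIOX1. Chosen after seeing the data, other scalings gave 31 (DESeq2 size factors) and 30 (none) members with control 1 above control 2, and 7 and 9 members with treated libraries above and 7 and 6 below both controls. The counts of list genes above 0 with a library left out were also added after seeing the data. ALKBH3, KDM3B, ALKBH6, P4HA3 and P3H2 had under 20 counts per library, and the cause was not tested. The rows of ALKBH3, KDM3B and ALKBH6 overlap ACCSL, REEP2 and SYNE4 on the same strand.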
